A study of Homo sapiens with 6 samples.

Results

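The 39 genes described here encode the chaperones, folding enzymes and stress sensors of the endoplasmic reticulum (ER), together with the degradation, translocation and export machinery that the same stress response controls. They were taken from a list of symbols by function, with no measured value in the rule, although the list was drawn up with earlier results of these data known. All 39 matched 1 Ensembl identifier each among the 60671 in the count files, and 38 were abundant enough to be tested. The levels come from a single clone of K562, a line grown from a human chronic myeloid leukemia, that carries a doxycycline-inducible fusion of a Flag tag, a nuclear localization signal, the GpC methyltransferase M.CviPI and Lamin-B1. Cells in all 6 cultures carried this fusion and received 1 µg/mL doxycycline during the last 24 of 72 hours. Of these, 3 were kept in 0.1% DMSO as vehicle and 3 in 1 µM GSK343, an inhibitor of EZH2, the enzyme that places the H3K27me3 mark (EZH2i). RNA was sequenced from the 3′ end of polyadenylated transcripts, so a read count follows the number of transcripts and is given as CPM, reads per 1e6 reads on genes after scaling of the libraries by edgeR's TMM factors. CPM is not divided by gene length here, and it orders genes only where they are grouped by abundance.

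Secretory and membrane proteins enter the ER through the SEC61 channel and fold there with the help of Hsp70 and Hsp90 chaperones, sugar-binding chaperones and enzymes that form disulfide bonds. When unfolded proteins accumulate, the sensors IRE1 (gene *ERN1*), PERK (gene *EIF2AK3*) and ATF6 start the unfolded protein response. IRE1 splices the *XBP1* transcript, PERK phosphorylates eIF2alpha and thereby favours translation of ATF4, and ATF6 is cut to release a transcription factor. Together they raise chaperones, the machinery of ER-associated degradation (ERAD) and, through PPP1R15A, the phosphatase that reverses the PERK signal. Splicing, phosphorylation and cleavage are not seen in counts per gene, so the values below are transcript levels and not measures of sensor activity.

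Several of these genes are recognised by a short promoter sequence, the ER stress response element (ERSE), to which ATF6 and the general factor NF-Y bind. A RefSeq promoter (GRCh38.p14, 250 bases before to 50 after the annotated start) was at hand for 35 of the 39 genes. An exact ERSE, CCAAT and CCACG separated by 9 bases on either strand, lay in the promoters of 8 of these 35 genes (22.9%) and of 25 of all 27305 genes with a promoter (0.0916%). The 8 were *CALR*, *CANX*, *CRELD2*, *ERO1B*, *HSP90B1*, *HSPA5*, *PDIA6* and *XBP1*. In *CANX* the match spans the annotated start. Matches of the other 7 that lie before the start are shown because they are a feature that these genes share. Capitals mark the element and lower case the flanking bases, in the direction of transcription, with *HSP90B1* holding 2 copies.
HSPA5 (chr9:125241381-125241419, minus strand): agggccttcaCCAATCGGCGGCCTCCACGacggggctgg
HSP90B1, distal (chr12:103930206-103930244, plus strand): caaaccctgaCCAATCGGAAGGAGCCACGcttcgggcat
HSP90B1, proximal (chr12:103930311-103930349, plus strand): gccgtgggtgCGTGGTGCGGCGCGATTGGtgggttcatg
CALR (chr19:12938374-12938412, plus strand): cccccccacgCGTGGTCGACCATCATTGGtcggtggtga
CRELD2 (chr22:49918544-49918582, plus strand): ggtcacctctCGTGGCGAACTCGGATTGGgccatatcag
ERO1B (chr1:236282173-236282208, minus strand): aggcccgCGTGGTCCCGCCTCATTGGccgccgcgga
PDIA6 (chr2:10812843-10812881, minus strand): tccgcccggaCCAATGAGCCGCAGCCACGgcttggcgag
XBP1 (chr22:28800593-28800631, minus strand): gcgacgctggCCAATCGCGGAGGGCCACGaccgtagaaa

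The related element ERSE-II, ATTGG and CCACG separated by 1 base, lay in the promoters of 3 of the 35 genes (8.57%) and of 19 of all 27305 (0.0696%). It is shown for *HERPUD1*, *HYOU1* and *SDF2L1*, none of which held an exact ERSE. *HYOU1* held 2 copies, and the distal one overlaps an exact match to the XBP1-binding sequence TGACGTGG, which was in no other promoter of the list and in those of 253 of all genes (0.927%).
HERPUD1 (chr16:56932015-56932045, plus strand): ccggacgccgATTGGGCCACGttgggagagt
HYOU1, distal (chr11:119057370-119057400, minus strand): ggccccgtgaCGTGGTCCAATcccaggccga
HYOU1, proximal (chr11:119057264-119057294, minus strand): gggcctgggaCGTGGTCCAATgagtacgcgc
SDF2L1 (chr22:21642104-21642134, plus strand): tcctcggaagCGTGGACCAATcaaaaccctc

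A further match, TGATG and AA separated by 1 base on either strand, is the core bound by ATF4 with C/EBP proteins. It was found in the promoters of *CREB3L2*, *HERPUD1* and *PPP1R15B* (8.57% of the 35, against 4.46% of all genes). These matches are letters in a window and were not tested as binding sites. The list was chosen by function in the stress response that these elements serve, so its shares of them are no independent result.

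EZH2 inhibition was followed by no called change in any of the 38 tested genes. None passed an adjusted p of 0.05 (quasi-likelihood test of edgeR, Benjamini-Hochberg over the 12364 genes tested), where 4.26% of all tested genes passed, 3.34% as higher and 0.922% as lower. The count was also 0 with DESeq2 and with limma-voom. At an unadjusted p under 0.05 there were 5 of the 38 genes, 1 higher and 4 lower, where 19.1% of all tested genes were under this value. The EZH2i libraries lay entirely on one side of the DMSO libraries for 7 of the 38, 1 higher and 6 lower, against 24.5% of all tested genes. In the lower direction the 4 genes were 10.5% of the 38, against 8.21% of all tested genes, and the 6 genes without overlap were 15.8%, against 11.1%. In the higher direction the single gene was 2.63% of the 38, against 10.9% of all tested genes by unadjusted p and 13.3% by lack of overlap. These shares rest on 1 to 6 genes and were not tested against each other. Without the filter on low counts 2 of all 39 were called, *SEC61G* and *MANF* (edgeR adjusted p = 0.00177 and 0.0496), where 3.54% of the 26226 genes in that fit were. In bulk RNA, less RNA per cell and fewer cells of a kind cannot be told apart.

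**Figure D1:**
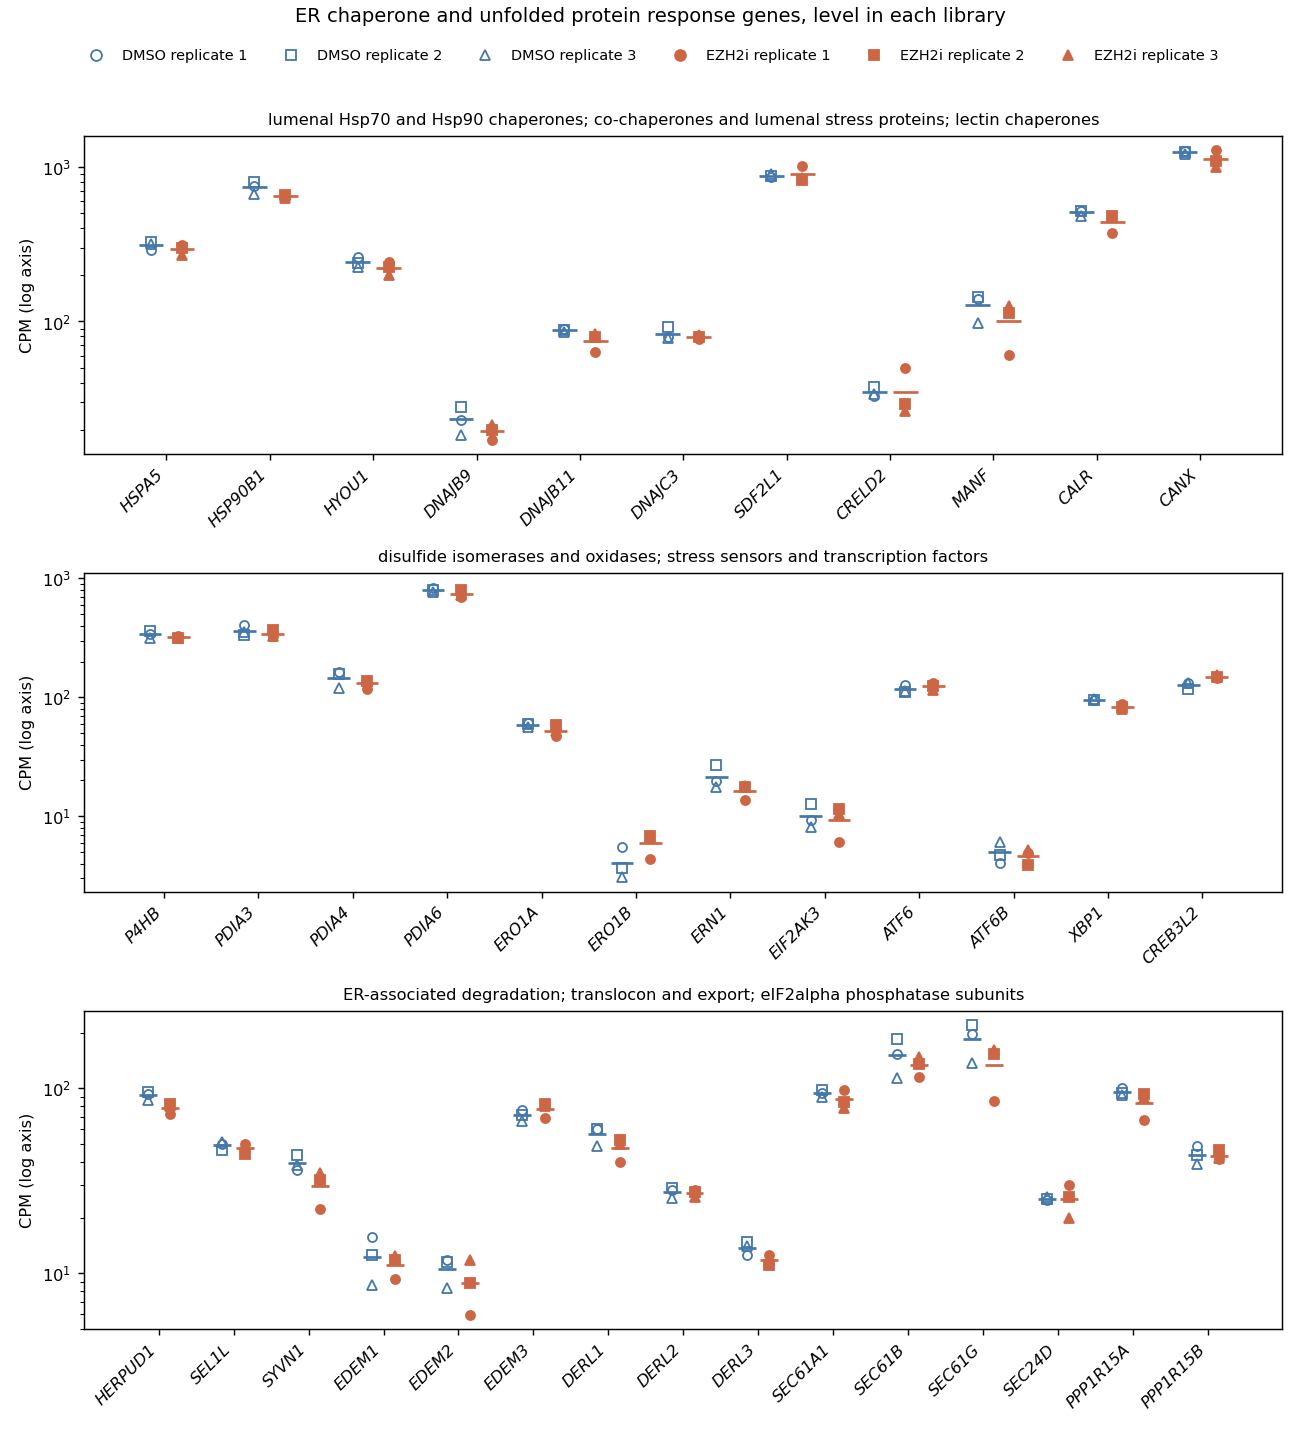
Level of each of the 38 tested genes in CPM (log axis) in the 3 DMSO libraries (open, blue) and the 3 EZH2i libraries (filled, orange), with a marker shape per replicate and a bar at the group mean. Most pairs of groups overlap, and EZH2i replicate 1 lies below the other libraries for *MANF*, *SEC61G* and *SYVN1*.

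The estimates were small, and most of them were slightly negative. The median log2 fold change of the 38 genes was -0.12, with 32 genes below 0 and 6 above, while the median of all tested genes was 0.00, with 6186 of 12364 below 0. Among the 4122 most abundant genes tested, to which 25 of the 38 belong, the median was -0.05 with 60.2% below 0, and those 25 had a median of -0.14 with 21 below 0. The estimates ran from -0.47 for *SEC61G* to 0.57 for *ERO1B*. The 95% interval of the fold change lay within 1.5-fold in both directions for 29 of the 38 genes and within 2-fold for 37, *ERO1B* being the exception. The genes whose interval reached past 1.5-fold were *DNAJB9*, *MANF*, *ERO1B*, *ERN1*, *EIF2AK3*, *ATF6B*, *SYVN1*, *EDEM2* and *SEC61G*. Summed over all 39 genes, the level was 7509, 7515 and 6936 CPM in DMSO replicates 1, 2 and 3 and 6797, 6849 and 6563 CPM in EZH2i replicates 1, 2 and 3. Each EZH2i sum was thus below each DMSO sum, and DMSO replicate 3 was nearer to EZH2i replicate 2 than to the other DMSO libraries.

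**Figure D2:**
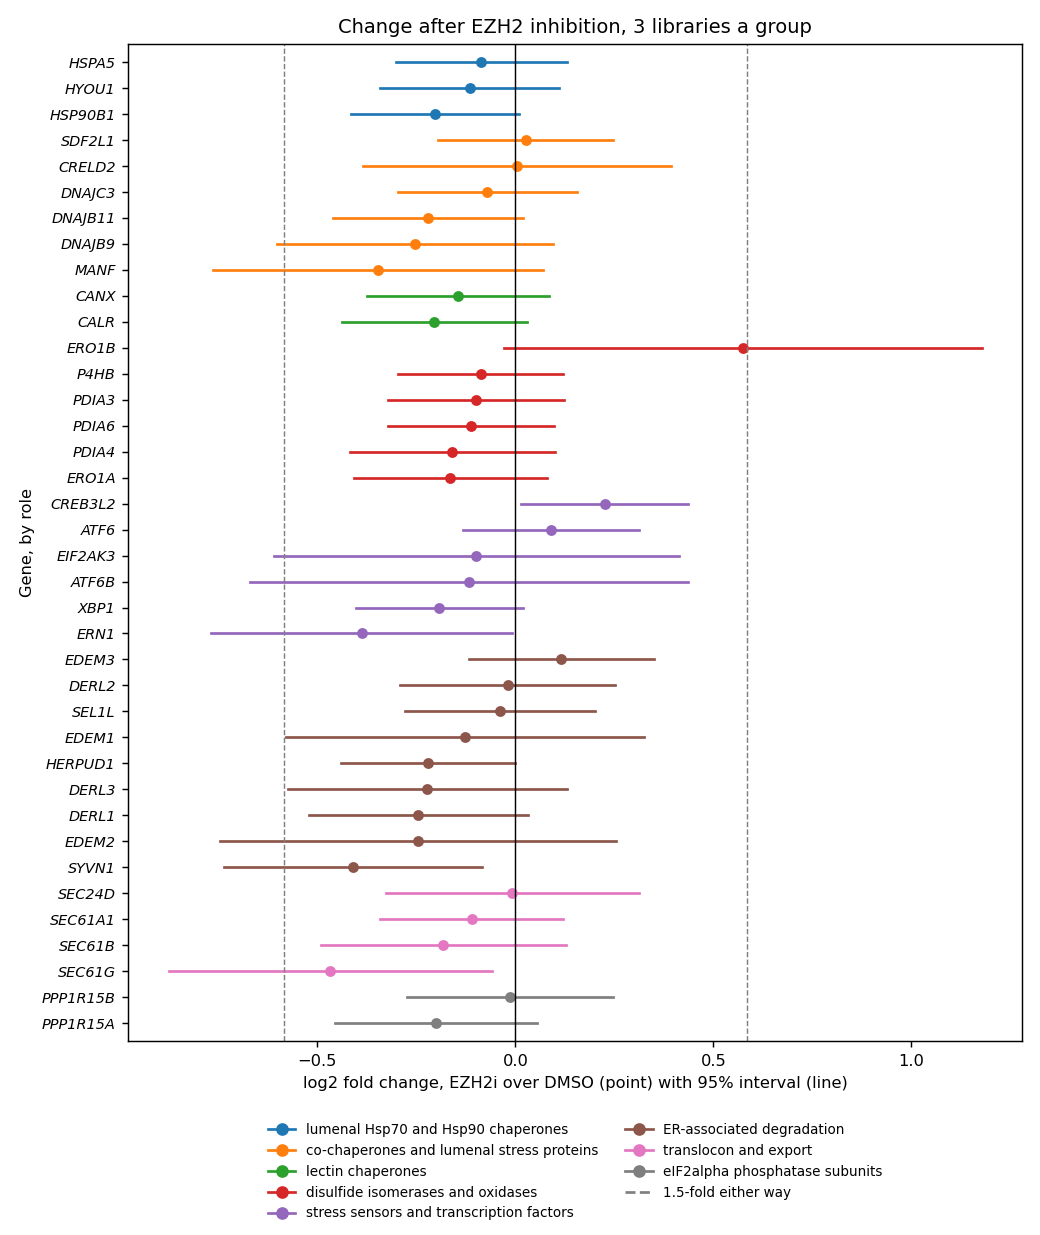
Log2 fold change of EZH2i over DMSO for the 38 tested genes (points) with 95% intervals (lines), coloured by role, and dashed lines at 1.5-fold in either direction. Of the 38 intervals, 29 stay inside the dashed lines, and 32 of the points lie below 0.

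The chaperones that do most of the folding work in the ER lumen showed no called change. *HSPA5* (ENSG00000044574, chromosome 9 of GRCh38, 125234853 to 125241382), which encodes BiP, the Hsp70 of the ER and the protein that holds the sensors inactive, was at 289, 327 and 316 CPM in the DMSO replicates and at 313, 299 and 267 CPM in the EZH2i replicates. The groups overlapped, and its log2 fold change was -0.09 (standard error, SE, 0.102, edgeR adjusted p = 0.707), with a 95% interval from 0.811-fold to 1.09-fold. *HSP90B1*, the Hsp90 of the ER known as GRP94, was at 752, 792 and 669 CPM in DMSO and at 648, 651 and 623 CPM in EZH2i. All EZH2i values were below all DMSO values, by little at the nearest pair, and the log2 fold change of -0.20 (SE 0.100, edgeR adjusted p = 0.281) was not called. Exons of *UQCC6* and *TTC41P* on the opposite strand overlap *HSP90B1*, and the strand setting of the counting is not given in the sources used here. *HYOU1*, an Hsp70-like exchange factor for BiP, had a log2 fold change of -0.12 (edgeR adjusted p = 0.611). *HSPA5* and *HSP90B1* hold an ERSE and *HYOU1* holds ERSE-II, shown above.

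The co-chaperones and small lumenal stress proteins held no called gene, and the spread among the EZH2i replicates was wide for several of them. *MANF*, a secreted ER stress protein that binds BiP, was at 139.5, 144 and 98.4 CPM in DMSO and at 60.8, 114 and 126 CPM in EZH2i (log2 fold change -0.35, SE 0.197, edgeR adjusted p = 0.353). EZH2i replicate 1 was by far the lowest, the other EZH2i libraries fell within the DMSO range, and without EZH2i replicate 1 the log2 fold change was -0.08. Over the fits without 1 library each it reached -0.54. *DNAJB9*, the J-domain protein ERdj4 and a known XBP1 target, was at 23.1, 28.1 and 18.6 CPM in DMSO and at 17.2, 19.9 and 21.5 CPM in EZH2i, with overlapping groups (log2 fold change -0.25, edgeR adjusted p = 0.426), an estimate of -0.09 with DMSO replicate 2 left out and -0.40 with DMSO replicate 3 left out. *SDF2L1*, a partner of the J-domain protein DNAJB11, was at 856, 870.2 and 899 CPM in DMSO and at 1011, 823 and 839.6 CPM in EZH2i. EZH2i replicate 1 was here the highest library, the reverse of its place for *MANF*, and the log2 fold change was 0.03 (edgeR adjusted p = 0.925). *CRELD2*, a stress-inducible protein of the ER lumen, had the same pattern, with 49.8 CPM in EZH2i replicate 1 against 26.4 to 37.9 CPM in the other 5 libraries. The J-domain co-chaperones *DNAJB11* and *DNAJC3* had log2 fold changes of -0.22 and -0.07, neither called. That of *DNAJB11* was -0.11 without EZH2i replicate 1.

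The lectin chaperones calreticulin and calnexin hold newly made glycoproteins until they are folded. *CALR* (ENSG00000179218, chromosome 19, 12938578 to 12944489) was at 519.8, 517 and 483 CPM in DMSO and at 370.3, 479 and 470.1 CPM in EZH2i. The groups did not overlap, but EZH2i replicate 1 made up much of the gap, and the log2 fold change of -0.20 (SE 0.111, edgeR adjusted p = 0.327) was not called and was -0.09 without that library. *CANX* ranged from 1202 to 1260.4 CPM in DMSO and from 987 to 1277 CPM in EZH2i (log2 fold change -0.14, edgeR adjusted p = 0.501). Its estimate was -0.25 without EZH2i replicate 1 and -0.06 without EZH2i replicate 3.

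Of the 6 genes for disulfide bond formation, 5 had small negative estimates and 1 a positive one. The isomerases *P4HB*, *PDIA3*, *PDIA4* and *PDIA6*, which make and rearrange disulfide bonds, had log2 fold changes of -0.09, -0.10, -0.16 and -0.11, and their groups overlapped. With 1 library left out the estimates ran from -0.14 to -0.04, -0.16 to -0.02, -0.29 to -0.07 and -0.17 to -0.07 in the same order. *ERO1A*, the oxidase that recharges the isomerases, had a log2 fold change of -0.16 (edgeR adjusted p = 0.469). Its paralog *ERO1B* (ENSG00000086619, chromosome 1, 236214681 to 236282019) was at 5.47, 3.68 and 3.06 CPM in DMSO and at 4.33, 6.81 and 6.73 CPM in EZH2i. EZH2i replicates 2 and 3 were the highest libraries, while EZH2i replicate 1 lay inside the DMSO range. The estimate, a log2 fold change of 0.57 (SE 0.286, edgeR adjusted p = 0.285), was the most positive of the list, with an interval from 0.980-fold to 2.26-fold at these low counts.

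Among the sensors and their transcription factors, no gene was called, and the estimates went both ways. *ERN1*, which encodes IRE1, was at 19.7, 27.2 and 17.5 CPM in DMSO and at 13.7, 17.5 and 18.0 CPM in EZH2i. The groups overlapped, DMSO replicate 2 was the highest and EZH2i replicate 1 the lowest, and the log2 fold change was -0.39 (SE 0.180, edgeR adjusted p = 0.250). Leaving out DMSO replicate 2 moved it to -0.17. *XBP1* (ENSG00000100219, chromosome 22, 28794555 to 28800597), the transcript that IRE1 splices and that encodes the transcription factor of this arm, was at 94.6, 95.3 and 96.8 CPM in DMSO and at 87.1, 83.6 and 80.4 CPM in EZH2i. These were the tightest DMSO values of the 38 genes on a relative scale (coefficient of variation 1.16%), and every EZH2i library was below them. The log2 fold change of *XBP1* was -0.19 (SE 0.0997, edgeR adjusted p = 0.304), with an interval from 0.757-fold to 1.01-fold, and it lay between -0.22 and -0.16 under every alternative run. Spliced and unspliced *XBP1* share the 3′ end and are counted together.

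*EIF2AK3*, which encodes PERK, was at 9.38, 12.7 and 8.06 CPM in DMSO and at 6.10, 11.6 and 10.5 CPM in EZH2i (log2 fold change -0.10, SE 0.242, edgeR adjusted p = 0.871). Only EZH2i replicate 1 lay outside the DMSO range, and without that library the estimate turned to 0.14. *ATF6* was at 127, 109.8 and 113 CPM in DMSO and at 133, 124 and 115 CPM in EZH2i, with overlapping groups (log2 fold change 0.09, SE 0.106, edgeR adjusted p = 0.696). *ATF6B*, its paralog, had a log2 fold change of -0.12 (edgeR adjusted p = 0.855) and an uncertain count, since its exons overlap those of *TNXB* on the same strand. *CREB3L2* (ENSG00000182158, chromosome 7, 137874979 to 138002086), an ER-bound transcription factor of the same type as ATF6 that is known for raising secretory capacity, was at 132, 119 and 131 CPM in DMSO and at 145, 148 and 154 CPM in EZH2i. It was the only one of the 38 genes with every EZH2i library above every DMSO library, although its log2 fold change of 0.23 (SE 0.0998, unadjusted p = 0.0368, edgeR adjusted p = 0.224) was not called. Its estimate stayed between 0.18 and 0.25 under every alternative run.

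The ERAD genes, whose products recognise misfolded proteins, move them out of the ER and mark them with ubiquitin, had the most negative median of all the roles. Of the 9 genes 8 were below 0, with a median log2 fold change of -0.22 and 0 called. Outside the list, the median was -0.09 for 19 other ERAD genes and -0.22 for 17 other translocon and signal peptide genes. The roles were not tested against each other. *SYVN1* (ENSG00000162298, chromosome 11, 65121780 to 65134532), which encodes the ubiquitin ligase HRD1, was at 36.0, 43.7 and 38.6 CPM in DMSO and at 22.2, 32.0 and 34.9 CPM in EZH2i. The groups did not overlap, and with a log2 fold change of -0.41 (SE 0.155) it had the smallest p-value of the list (unadjusted p = 0.0168, edgeR adjusted p = 0.149). Without EZH2i replicate 1 the estimate was -0.24. Exons of *FAU* on the same strand overlap *SYVN1*, so its count is uncertain. The same limit holds for *HSP90B1* (*MIR3652*), *CANX* (*HMGB3P22*) and *DNAJB11* (an unnamed gene).

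*HERPUD1*, a membrane adaptor of HRD1 and one of the genes most readily raised by ER stress, was at 92.7, 95.3 and 86.4 CPM in DMSO and at 73.0, 81.8 and 80.6 CPM in EZH2i. Every EZH2i library was below every DMSO library (log2 fold change -0.22, SE 0.104, unadjusted p = 0.0486, edgeR adjusted p = 0.257). *SEL1L*, the scaffold of HRD1, had a log2 fold change of -0.04. The mannosidase-like proteins that mark glycoproteins for ERAD had estimates of -0.13 for *EDEM1*, -0.24 for *EDEM2* and 0.12 for *EDEM3*, the last at 76.5, 71.4 and 66.4 CPM in DMSO and 69.2, 82.7 and 79.9 CPM in EZH2i, with overlap. That of *EDEM2* was -0.03 without EZH2i replicate 1 and -0.49 without EZH2i replicate 3. The derlins, which help pull substrates across the membrane, had estimates of -0.24 for *DERL1*, -0.02 for *DERL2* and -0.22 for *DERL3*. For *DERL1* leaving out EZH2i replicate 1 gave -0.13 and leaving out DMSO replicate 3 gave -0.34.

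The small channel subunits varied widely among replicates, and none of the translocon and export genes was called. *SEC61G* (ENSG00000132432, chromosome 7, 54752250 to 54759974), the gamma subunit of the translocon, was at 198, 220.0 and 136 CPM in DMSO and at 85.6, 154 and 161 CPM in EZH2i. DMSO replicate 3 lay below EZH2i replicates 2 and 3, so the groups overlapped, and the lowest value was again EZH2i replicate 1. Its log2 fold change of -0.47 (SE 0.193, edgeR adjusted p = 0.189) was the most negative of the list and was -0.23 without EZH2i replicate 1 and -0.65 without DMSO replicate 3. *SEC61B*, the beta subunit, had the same low value in DMSO replicate 3 (113 CPM against 153 and 186), with a log2 fold change of -0.18. The channel itself, *SEC61A1*, stood at -0.11, and *SEC24D*, a cargo adaptor of the COPII coat that carries proteins out of the ER, at -0.01.

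The regulatory subunits that direct the phosphatase PP1 to eIF2alpha and so reverse PERK signalling were not called. *PPP1R15A*, the stress-inducible subunit GADD34, was at 99.9, 94.3 and 92.1 CPM in DMSO and at 67.3, 92.9 and 88.8 CPM in EZH2i (log2 fold change -0.20, SE 0.121, edgeR adjusted p = 0.384). EZH2i replicates 2 and 3 lay within or just under the DMSO values, and replicate 1 stood apart, without which the estimate was -0.07. The constitutive subunit *PPP1R15B* had a log2 fold change of -0.01. *WFS1*, an ER membrane protein linked to stress signalling, had 1, 5 and 3 reads in the DMSO libraries and 4, 0 and 0 in the EZH2i libraries, too few for the test.

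**Figure D3:**
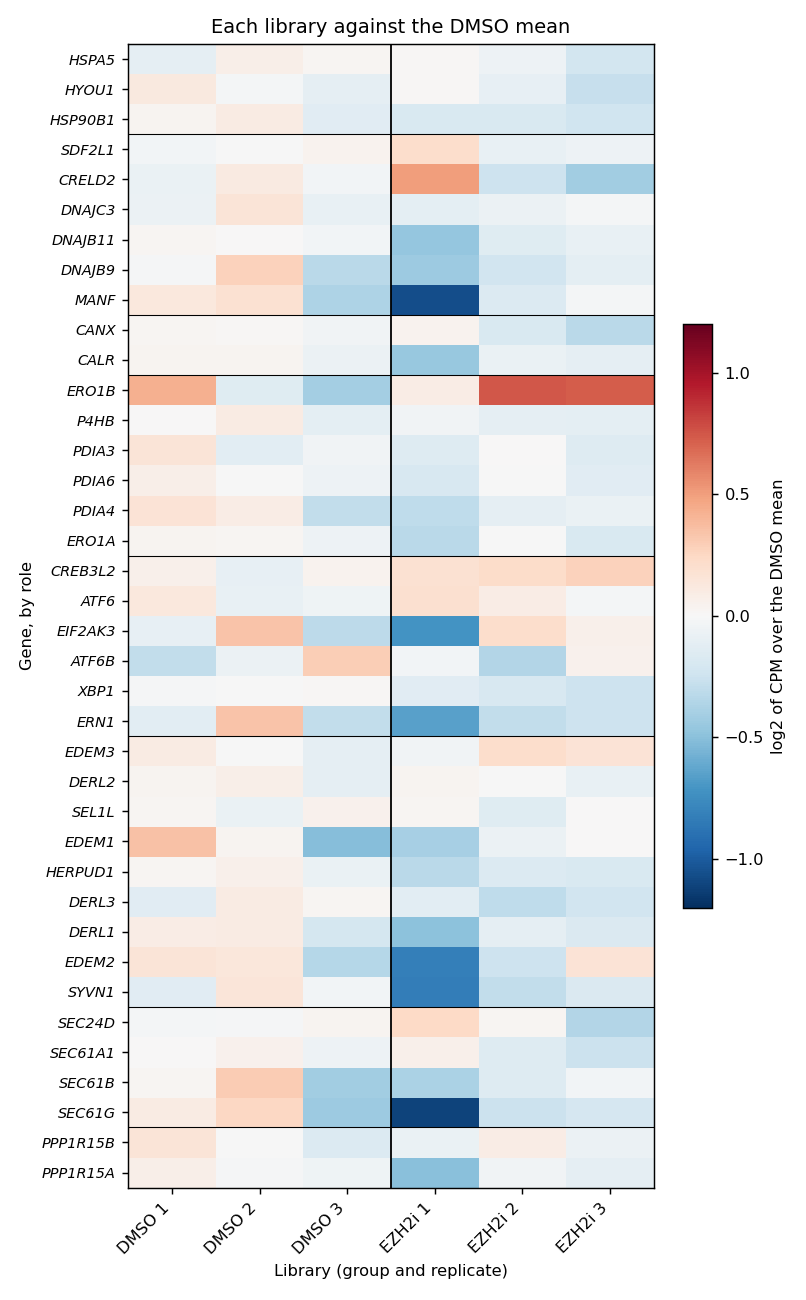
Log2 of the CPM of each tested gene in each library over its DMSO mean, with genes in rows by role and libraries in columns. EZH2i replicate 1 holds the strongest negative values, in *SEC61G* and *MANF*, next to positive ones for *CRELD2* and *SDF2L1*, *ERO1B* is highest in EZH2i replicates 2 and 3, and DMSO replicate 3 is paler blue for many of the genes.

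The libraries did not contribute equally to the small negative estimates. EZH2i replicate 1 was the lowest of the 6 libraries for 16 of the 38 genes (42.1%), where it was the lowest for 24.3% of all tested genes, and EZH2i replicate 3 was the lowest for 10 (26.3%, against 15.2%). DMSO replicate 3 lay under the DMSO mean for 30 of the 38, and DMSO replicate 1 was the lowest library for 0 of them, against 15.9% of all tested genes. The median over the 38 genes against the DMSO mean was -0.14, -0.10 and -0.11 on the log2 scale in EZH2i replicates 1, 2 and 3 and 0.03, 0.04 and -0.08 in DMSO replicates 1, 2 and 3. Without EZH2i replicate 1 the median log2 fold change of the 38 genes was -0.09, with 32 of 38 still below 0, and without DMSO replicate 3 it was -0.17. Their median coefficient of variation was 7.94% among the DMSO libraries and 11.4% among the EZH2i libraries, where all tested genes had 10.9% and 12.5%.

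Genes with and without the promoter element had like medians, a description with no test. The 8 genes with an exact ERSE had a median log2 fold change of -0.13 (range -0.20 to 0.57), and the 26 tested genes with a promoter but no exact ERSE had one of -0.12 (range -0.47 to 0.23). Of the 25 genes in the genome with an exact ERSE in this window, the other tested ones were *ALG12*, *EIF2A*, *FICD*, *SERP1*, *TMEM120A*, *TRIM5* and *ZNF17*, and none of them was called. Their log2 fold changes ran from -0.38 for *TMEM120A* to 0.44 for *ZNF17*, with 0.26 for *TRIM5*, -0.13 for *ALG12*, -0.10 for *EIF2A*, -0.09 for *FICD*, which modifies BiP, and 0.00 for *SERP1*, a translocon-associated stress protein.

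Beyond the list, 122 further genes of the same pathways were read from the same fit, of which 118 were tested. Among them 6 were called, 1 higher and 5 lower. The 5 were 4.24% of the 118, against 0.922% of all tested genes called lower, and the 1 was 0.847%, against 3.34% called higher. The count of 6 depended on the libraries included and was 1 without DMSO replicate 1, 2 without EZH2i replicate 3 and 3 without DMSO replicate 3. All 6 lay outside the ER folding machinery, with 3 in the PERK and ATF4 arm and 3 among the cytosolic and mitochondrial chaperones. The other groups had no called gene: ER folding and oxidation (26 tested, 2 at an unadjusted p under 0.05), ERAD (19 tested, 3), translocon and signal peptide processing (17 tested, 4), COPII coat (11 tested, 2), and the further sensor and activation genes (16 tested, 1). The same count was 6 of 11 in the PERK and ATF4 arm, 3 of 18 for the chaperones outside the ER and 17.8% over the 118 genes, against 19.1% of all tested genes. DESeq2, run without this filter on all 122, called 9, among them *UBXN4*, an ERAD factor, and *SEC11A*, a subunit of the signal peptidase. In edgeR's test *SEC11A* was at 491, 607 and 495 CPM in DMSO and at 311, 430.1 and 431 CPM in EZH2i, a log2 fold change of -0.44 (adjusted p = 0.0641).

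The 11 tested genes of the PERK and ATF4 arm had a median log2 fold change of -0.33, with 10 below 0. The name is that of the list, and a link between these estimates and PERK was not tested. *TRIB3*, a pseudokinase induced by ATF4, *CEBPG*, a partner of ATF4, and *DDIT4*, an inhibitor of mTOR signalling, fell. *TRIB3* was at 151, 134 and 152 CPM in DMSO and at 76.8, 90.9 and 96.4 CPM in EZH2i (log2 fold change -0.73, edgeR adjusted p = 0.00138). *CEBPG* was at 68.3, 66.0 and 52.5 CPM in DMSO and at 35.8, 38.2 and 42.8 CPM in EZH2i (log2 fold change -0.68, edgeR adjusted p = 0.00586). *DDIT4* was at 334, 248 and 281 CPM in DMSO and at 203, 212 and 188 CPM in EZH2i (log2 fold change -0.52, edgeR adjusted p = 0.0174). In each of the 3 genes every EZH2i library lay below every DMSO library. Leaving out 1 library gave adjusted p-values of up to 0.0149 for *TRIB3*, 0.0502 for *CEBPG* and 0.109 for *DDIT4* (edgeR). *ATF4* itself was at 585, 547 and 619 CPM in DMSO and at 718, 511 and 452 CPM in EZH2i, with EZH2i libraries both above and below the DMSO range (log2 fold change -0.06, edgeR adjusted p = 0.862). *DDIT3*, which encodes CHOP, averaged 29.4 ± 1.53 CPM in DMSO and 20.6 ± 4.80 CPM in EZH2i (SD, n = 3 each), without overlap, and was not called (log2 fold change -0.51, edgeR adjusted p = 0.0864). It was called in 2 of the alternatives, without the filter on low counts and without EZH2i replicate 1 (edgeR adjusted p = 0.0222 and 0.0381), and over all of them its adjusted p reached 0.254, without EZH2i replicate 3. Its count is uncertain, since its exons overlap an unnamed gene on the same strand and those of *MARS1* and *MBD6* on the other. The difference between this arm and the ER folding genes was not tested.

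**Figure D4:**
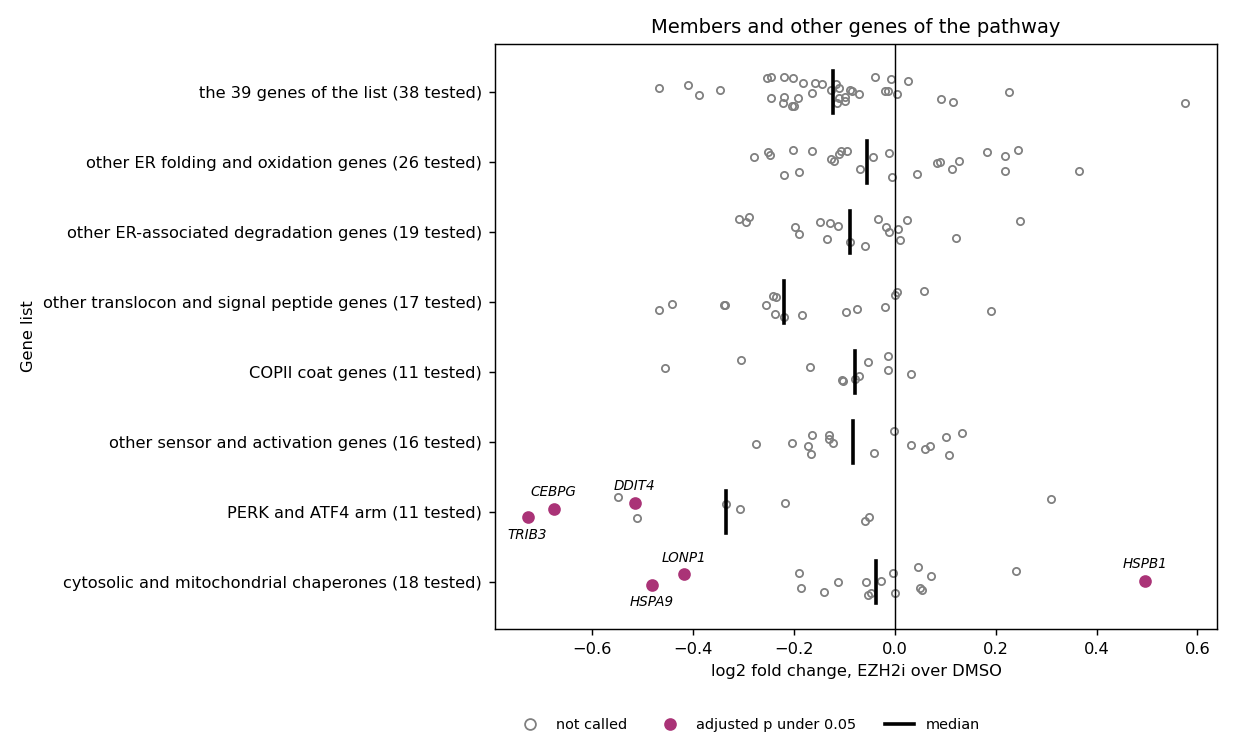
Log2 fold change of EZH2i over DMSO for the 38 tested genes of the list and the 118 tested further genes of the pathways, 1 row per group, with filled points for genes at an adjusted p under 0.05 and a bar at each median. The called genes lie in the lowest rows, *TRIB3*, *CEBPG* and *DDIT4* in the PERK and ATF4 arm and *HSPA9*, *LONP1* and *HSPB1* among the chaperones outside the ER.

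Outside the ER, *HSPA9*, the mitochondrial Hsp70, was at 333, 284 and 307 CPM in DMSO and at 219, 236 and 206 CPM in EZH2i, and it fell by 0.48 on the log2 scale (SE 0.103, edgeR adjusted p = 0.0136). *LONP1*, the protease of the mitochondrial matrix, was at 252, 235 and 249 CPM in DMSO and at 191, 187 and 173 CPM in EZH2i, a fall of 0.42 (log2 fold change -0.42, edgeR adjusted p = 0.0227); exons of *RPL36* on the opposite strand overlap it. The small heat shock protein *HSPB1* rose, from 314, 291 and 351 CPM in DMSO to 414, 441 and 493 CPM in EZH2i (log2 fold change 0.50, SE 0.107, edgeR adjusted p = 0.0148). In all 3 genes the groups did not overlap, unlike in *HSPA5*, the ER relative of *HSPA9*. With 1 library left out the estimates kept their direction and like size, from -0.54 to -0.43 for *HSPA9*, from -0.45 to -0.38 for *LONP1* and from 0.42 to 0.57 for *HSPB1*, while the adjusted p-values reached 0.0833, 0.0990 and 0.0895 (edgeR). The cytosolic chaperones *HSPA8*, *HSP90AA1* and *HSP90AB1* were not called, with log2 fold changes of -0.11, 0.00 and -0.03.

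Each library held between 6327544 and 8987768 reads on genes, and the 39 genes held from 0.662% to 0.759% of them. Among the K562 markers, the erythroid regulators *GATA1*, *TAL1* and *KLF1*, the transferrin receptor *TFRC* and *LMO2* were present in every library and not called. The embryonic and fetal globins *HBZ* and *HBG2* rose, *HBZ* from 71.5 ± 5.64 to 159 ± 27.4 CPM and *HBG2* from 94.3 ± 11.6 to 140.3 ± 29.3 CPM (mean ± SD over 3 libraries; log2 fold changes 1.15 and 0.58, edgeR adjusted p = 6.14e-05 and 0.0251). Exons of other genes on the same strand overlap both, so these counts are uncertain. *HBG1*, a near-identical copy of *HBG2* that may share its reads, had a log2 fold change of -0.39 and was not called, and *HBE1* was under 1 CPM in every library.

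Markers of other cell types also differed between the groups. The T cell marker *CD3D* rose from 63.8 ± 5.82 to 88.0 ± 9.57 CPM and the fibroblast collagen *COL1A1* from 1.57 ± 0.507 to 6.04 ± 1.91 CPM (mean ± SD over 3 libraries; log2 fold changes 0.46 and 1.91, edgeR adjusted p = 0.0309 and 0.00424). The epithelial marker *EPCAM* was at 77.5 ± 5.48 CPM in DMSO and 63.9 ± 2.71 CPM in EZH2i, without overlap and not called (log2 fold change -0.28, edgeR adjusted p = 0.156). The markers *CD3E*, *CDH1*, *COL1A2* and *ALB* were too low for the test, and *MS4A1* and *JCHAIN* had 0 reads in all 6 libraries, where a count of 0 allows up to 3 reads per library (counting error only). Summed, the 10 markers of other cell types ranged from 140.0 to 151 CPM in DMSO and from 158 to 173 CPM in EZH2i, and their part in these results was not tested. Most of each sum came from *CD3D* and *EPCAM*, which moved in opposite directions.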

How the data were processed

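The authors aligned 3′ mRNA sequencing reads (QuantSeq FWD) to hg38 and counted them per Ensembl gene with HTSeq 0.11.2; the submitters' processing notes also name STAR 2.6.0c. They deposited raw counts for each of 6 libraries from separate cultures, and a table of their own fold changes and p-values that was not used. Rows that name no gene were left out, leaving 63.6% to 67.9% of the listed reads.

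The test was the quasi-likelihood test of edgeR 4.0.16 (R 4.3.3), with TMM scaling, filterByExpr with a minimum count of 10, glmQLFit and glmQLFTest with default options and treatment as the only term, two-sided, Benjamini-Hochberg adjustment over 12364 genes, threshold 0.05. A standard error is the log2 fold change over the square root of F, and 95% intervals use the test's degrees of freedom, without adjustment for the number of genes. Within groups, replicate pairs differed by more than sampling noise (chi-square per degree of freedom 4.25 to 11.5). The sources used here do not say whether replicate numbers pair the samples, and the main fit did not pair them. Alternatives were DESeq2 1.42.0, limma-voom (limma 3.58.1), other size factors and filters, thresholds, a replicate block and leaving out each library. Fits were tested on simulated data drawn with the same dispersion for every gene. There edgeR called 25 of 50 genes changed 1.5-fold and 39 of 49 changed 2-fold.

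Symbols and positions come from GENCODE version 44 on GRCh38, the authors' build, and promoters from RefSeq; genes without a promoter in that table were not analysed for motifs, and protein sequences were not used. Full values are given for *HSPA5*, *HSP90B1*, *CALR*, *XBP1*, *ERN1*, *EIF2AK3*, *ATF6*, *HERPUD1*, *DNAJB9*, *PPP1R15A*, every called member and the 5 highest and 5 lowest estimates of members; further genes are named where called or among the largest changes of their group, and *ATF4*, the ERSE genes and the cytosolic chaperones were named after their values were seen. The members and all gene lists were chosen with earlier results of these data known.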

Additional observations from a re-analysis of the deposited data

Results flagged for a closer look

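Reads that fell on no annotated gene made up 12.7% of the listed reads in EZH2i replicate 3, against 7.43% to 8.42% in the DMSO libraries and 8.13% and 8.51% in EZH2i replicates 1 and 2. This share lies outside the gene counts and stood above every DMSO library by more than the range among them. The 39 genes held 0.662% of the reads on genes in that library, the lowest share of the 6. Without it the median log2 fold change of the 38 tested genes was -0.16 in place of -0.12, and its part in that median was not tested.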

How the results depend on the processing

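The count of 0 called genes of the list held under every alternative but 1. Without a filter on low counts 2 were called, *SEC61G* (log2 fold change -0.49, adjusted p = 0.00177, edgeR) and *MANF* (-0.37, adjusted p = 0.0496, edgeR), and the median of the list was -0.15; that fit covers 26226 genes, calls 928 of them (579 higher, 349 lower), and the cause was not tested. Across the fits without 1 library each, the list had 0 called genes in each and a median of -0.174 to -0.0909, all genes had 209 to 536 calls (213, 209 and 240 without DMSO replicates 1, 2 and 3), and the further pathway genes had 1 to 8 in place of 6, with 1 without DMSO replicate 1, 3 without DMSO replicate 3, 2 without EZH2i replicate 3. At an adjusted p under 0.01 all genes had 148 calls and the further genes 2, and under 0.1 they had 950 and 11. Of the 38 genes 27 kept their sign in all 13 alternatives. The sign changed with upper quartile factors for *SEC24D* (0.00801) and *PPP1R15B* (0.00267) and for *CRELD2* with DESeq2 (-0.0134), limma-voom (-0.0525), RLE factors (-0.00452), no filter (-0.0188) and the replicate block (-0.0472). In the fits without 1 library the log2 fold change ranged across 0 for *SEL1L* (-0.0773 to 0.0129), *DERL2* (-0.0708 to 0.0202), *DNAJC3* (-0.115 to 0.0146), *SEC61B* (-0.353 to 5.44e-05), *SDF2L1* (-0.0713 to 0.0795), *EDEM1* (-0.334 to 0.0695), *SEC24D* (-0.145 to 0.133), *PPP1R15B* (-0.0918 to 0.0673), *EIF2AK3* (-0.287 to 0.137), *CRELD2* (-0.327 to 0.172) and *ATF6B* (-0.234 to 0.0644). Libraries with the same number did not deviate together (correlations -0.0511, -0.0175 and -0.017), and with the replicate block 0 genes of the list, 7 further genes and 599 genes in all were called. The calls of *DDIT4*, *CEBPG*, *HSPB1*, *HSPA9* and *LONP1* were lost in at least 1 fit without a library, and that of *TRIB3* in none. Counts limit what *ERO1B*, *ATF6B*, *EIF2AK3* and *WFS1* can show.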
